A study of Mus musculus with 22 samples.

Results

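Creatine kinases pass a phosphate group between ATP and creatine, and 7 mouse genes of this chemistry are described here. They are the creatine kinases Ckm, Ckb, Ckmt2 and Ckmt1, the creatine transporter Slc6a8, and the creatine-making enzymes Gatm and Gamt. They were found by their symbols in both count tables and are 7 of the 48709 genes listed there. Ckm was picked from measured values, because its level was low in LIN9 KO ventricles, and the other 6 were chosen by what their products do. The choice does not say in which experiment Ckm was seen to fall. Ckm is therefore described without a p-value in every comparison.

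The samples are RNA-seq libraries of heart ventricles from E13.5 mouse embryos, made to compare loss of LIN9, of SAV1, and of both. LIN9 is a subunit of the MuvB complex, which controls cell cycle genes, and SAV1 is a scaffold protein of the Hippo kinases. In experiment 1, 6 libraries compare loss of LIN9 alone, with Sav1 intact. Experiment 2 crosses both genotypes and has 4 groups and 12 libraries. Each of the 6 groups has 3 libraries.

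All groups, controls included, carried Nkx2.5-Cre, which acts in cardiac precursor cells, in mice kept on a C57/Bl6 background. LIN9 KO is Lin9 fl/fl, in which Cre removes exon 7, and Sav1 KO is Sav1 fl/fl, in which Cre removes exon 3. LIN9 wt is called wild-type in the sample labels and is given as Lin9 fl/+ in the study, which calls these mice heterozygous. Cells with active Cre can thus lose exon 7 from the floxed allele and keep the other allele intact. Sav1 wt is Sav1 +/+. Below, LIN9 wt with Sav1 wt in experiment 2 is called the control, and LIN9 KO with Sav1 KO the double KO. The tissue was whole ventricle, which also holds cells in which Nkx2.5-Cre is not active. RNA was taken in triplicates, and the sources used here do not state that the 3 libraries of a group came from separate embryos. A figure legend of the study speaks of biological replicates that were each done in triplicate, which may mean that the experiments are the biological replicates. The p-values thus measure only the spread between these samples, which may be technical.

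Library totals ran from 9485599 to 9615274 counts in experiment 1 (median 9539905) and from 2770741 to 2999877 in experiment 2 (median 2935363). The totals are alike within an experiment because the authors brought each library down to the smallest. Levels are given as CPM, counts scaled by the normalised library size, and 1 count stood for 0.103 to 0.108 CPM in experiment 1 and for 0.328 to 0.373 CPM in experiment 2. Genes with low counts are therefore measured less precisely in experiment 2.

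Some libraries stood apart from their group. Between replicates, a chi-square of the counts per gene was above 1 for every pair, from 1.22 to 26.4, so no pair of replicates differed by less than sampling noise. In the LIN9 KO group of experiment 2, replicate 3 differed from replicates 1 and 2 by 21.6 and 15.3, whereas those 2 differed by 6.32. Replicates 1 and 3 of LIN9 KO in experiment 1 gave the highest value, 26.4. Results that change without such a library are given with its value.

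The tables list some genes that heart cells use at 0 in all 18 libraries. These include the cardiac actin Actc1, the troponin Tnnc1, the ribosomal genes Rpl13 and Rpl24, and the respiratory chain gene Cox4i1. In all, 4069 of 21695 protein-coding genes (18.8%) were listed at 0. The reason was not tested, and a 0 here says only that a gene is listed at 0. Of the 7 genes described, 6 had counts in all 18 libraries.

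The targeted genes were checked in each library. Whole-gene counts include exons outside the deleted exon and cells without Cre, which limits this check. Lin9 stood at 29.8, 21.4 and 25.6 CPM in LIN9 wt and at 21.4, 21.3 and 19.2 in LIN9 KO of experiment 1, where the groups meet at 21.4. In experiment 2 it stood at 29.2, 28.1 and 23.2 CPM in the control, 13.1, 15.4 and 17.9 in LIN9 KO, 19.2, 31.4 and 25.6 in Sav1 KO, and 23.5, 26 and 18.5 in the double KO. The lower Lin9 level was called in LIN9 KO against the control (log2 fold change -0.80, SE 0.19, edgeR adjusted p = 0.0027), and this call was kept under each alternative setting run. It was not called in experiment 1 (-0.31, SE 0.14, edgeR adjusted p = 0.13) or in the double KO against Sav1 KO (-0.16, SE 0.18, edgeR adjusted p = 0.586), whose libraries overlap. The Lin9 counts thus do not separate the libraries labelled double KO from those labelled Sav1 KO. The ventricular cardiomyocyte markers given below do, and in the direction of the labels. Their summed level was 2374 to 3181 CPM in the double KO and 2142 to 2989 in LIN9 KO, and 6296 to 6897 in Sav1 KO and 6540 to 7235 in the control.

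Sav1 stood at 54.5, 56.1 and 61.9 CPM in the control and at 43.1, 36.1 and 43 in Sav1 KO. It was 51.9, 49.8 and 47.3 in LIN9 KO and 43.9, 40.5 and 42.3 in the double KO. In experiment 1 it was 54.3, 51.5 and 55.3 in LIN9 wt and 52, 49.9 and 43 in LIN9 KO. All Sav1 KO libraries lay below all Sav1 wt libraries of the same LIN9 genotype, but neither difference was called by edgeR (Sav1 KO against the control -0.50, SE 0.12, adjusted p = 0.318, and double KO against LIN9 KO -0.23, SE 0.12, adjusted p = 0.464). Of the exon bases of Sav1, 25.4% lie under Atl1 on the other strand, and the strandedness of the counting is not given in the sources used here.

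Creatine phosphate serves muscle, heart and brain as a quickly used store of high-energy phosphate. Cytosolic creatine kinase is a dimer of muscle-type (Ckm) and brain-type (Ckb) subunits, and the brain type is known to be prominent in the embryonic heart and the muscle type in the mature heart. The mitochondrial kinases Ckmt2 (sarcomeric) and Ckmt1 (ubiquitous) load creatine with phosphate where ATP is made. Gatm and Gamt make creatine in consecutive steps from arginine, glycine and a methyl donor, mainly in kidney, pancreas and liver, and Slc6a8 carries it into muscle cells.

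In the mouse genome (GRCm38.p6), Ckm lies at chr7:19404776-19422841 on the + strand, Ckb at chr12:111669361-111672338 and Ckmt2 at chr13:91853387-91876885 on the - strand. Ckmt1 lies at chr2:121357714-121363737 (+), Gatm at chr2:122594467-122611303 (-), Gamt at chr10:80258151-80261012 (-) and Slc6a8 at chrX:73673150-73682502 (+). All 7 are protein-coding, and the counts cover their exons, coding and untranslated. The antisense gene A930016O22Rik covers 15.5% of the exon bases of Ckm and 1700119I11Rik covers 5.65% of those of Ckmt2. Reads from a gene and its antisense partner cannot be told apart without strand. Both antisense genes were listed at 0.

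RefSeq promoter windows were at hand for 6 of the 7 genes, and not for Slc6a8. The bases before the start of the 3 kinases whose levels moved most are shown, 5′ to 3′ on the strand of the gene, for Ckm at chr7:19410844-19411024 (+), for Ckb at chr12:111672339-111672588 (-) and for Ckmt2 at chr13:91876886-91877135 (-) of GRCm38.p6. The Ckm stretch has 181 bases, since coding transcripts begin after it, and the others have 250. Capitals mark matches to the E-box CANNTG in Ckm and Ckmt2 and to the TATA box TATAAA in Ckb.
Ckm: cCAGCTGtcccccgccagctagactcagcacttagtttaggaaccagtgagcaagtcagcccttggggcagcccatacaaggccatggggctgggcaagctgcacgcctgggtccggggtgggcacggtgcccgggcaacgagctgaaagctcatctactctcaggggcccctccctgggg
Ckb: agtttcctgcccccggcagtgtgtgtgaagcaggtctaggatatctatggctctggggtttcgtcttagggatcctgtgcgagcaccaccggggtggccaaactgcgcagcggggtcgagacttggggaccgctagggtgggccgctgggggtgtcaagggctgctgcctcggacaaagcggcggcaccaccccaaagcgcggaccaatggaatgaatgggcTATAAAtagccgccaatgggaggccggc
Ckmt2: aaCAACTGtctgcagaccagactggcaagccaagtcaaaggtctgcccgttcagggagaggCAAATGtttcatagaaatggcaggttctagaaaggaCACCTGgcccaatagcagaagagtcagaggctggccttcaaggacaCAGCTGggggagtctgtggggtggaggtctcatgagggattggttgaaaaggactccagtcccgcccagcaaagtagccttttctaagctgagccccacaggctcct

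Over the 250 bases before each RefSeq start, on both strands, Ckm had 1 E-box, Ckmt2 had 4, Gatm had 1 and Ckb, Ckmt1 and Gamt had 0, while 66.2% of all 32851 windows of this length hold at least 1. The TATA box was in Ckb, at 28 to 23 bases before the start, and in Ckmt1, at 31 to 26 bases before 1 of its 2 starts, and 12.4% of all windows hold these letters. Neither TTTGAA, the cell cycle homology region, nor TNAAGGTCA, a site of oestrogen-related receptors, was in any of the windows of the 6 genes, and 16% and 1.14% of all windows hold them. No matches of different motifs overlapped in the windows of Ckm, Ckb and Ckmt2. A match describes letters and does not show a bound site.

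Between genes, levels were compared as CPM per kb of exon. In the control, Ckm was highest at 40.3 ± 4.38 CPM per kb (SD, n = 3) and Ckb next at 37.4 ± 1.04, and their libraries overlapped. Slc6a8 (18.2 ± 1.41), Gamt (13.3 ± 0.674), Gatm (8.37 ± 1.17) and Ckmt2 (4.03 ± 1.16) followed, each without overlap with its neighbours. LIN9 wt of experiment 1 had the same order, apart from Ckb (37.9 ± 2.63) and Ckm (36.6 ± 12.3), which again overlapped. In Sav1 KO ventricles Ckm (42 ± 1.29) lay above Ckb (37.2 ± 1.82) without overlap, and the order of the others was that of the control. The order of Ckm and Ckb there is the reverse with the median length of coding transcripts, an alternative chosen after seeing the data, where the ratio of Ckm to Ckb was 0.795 to 0.922.

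The order was another in the 3 groups without LIN9. Ckb was highest, with 66.2 ± 2.37 CPM per kb in LIN9 KO of experiment 1, 64.2 ± 9.3 in LIN9 KO of experiment 2 and 63.6 ± 4.69 in the double KO (SD, n = 3), apart from all other genes. Slc6a8 and Ckmt2 came next, and they overlapped in both LIN9 KO groups of experiment 2 and not in experiment 1. Ckm, at 7.1 ± 0.843, 7.36 ± 1.91 and 8.92 ± 0.978 CPM per kb in the same 3 groups, lay among Gamt and Gatm, with overlap between neighbours. Ckmt1 was lowest in all 6 groups, at no more than 0.138 CPM per kb on average.

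Of the 5 genes that were tested in all comparisons (Ckb, Ckmt2, Slc6a8, Gatm and Gamt), 5 were called by edgeR at an adjusted p under 0.05 in LIN9 KO against LIN9 wt of experiment 1, where 20.9% of 19752 genes tested were called. In LIN9 KO against the control, 4 of 5 were called beside 23.2% of 17675 genes, and in the double KO against Sav1 KO 4 of 5 beside 23.4%. In each, Ckb and Ckmt2 rose, beside 11.1%, 12.8% and 11.8% of all genes called higher, and Slc6a8 and Gamt fell, beside 9.78%, 10.5% and 11.6% called lower. Ckm was not counted because it was picked for its fall. A mean count above 1 was required, and 7 of the 7 genes passed in experiment 1 and 6 in experiment 2, where Ckmt1 did not. Without replicate 1 of LIN9 KO, 3 of the 5 were called in experiment 1, and without replicate 1 of Sav1 KO, 2 of the 5 in the double KO against Sav1 KO. Over all genes, the 4131 calls of experiment 1 dropped to 2722 without replicate 3 of LIN9 wt.

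**Figure D1:**
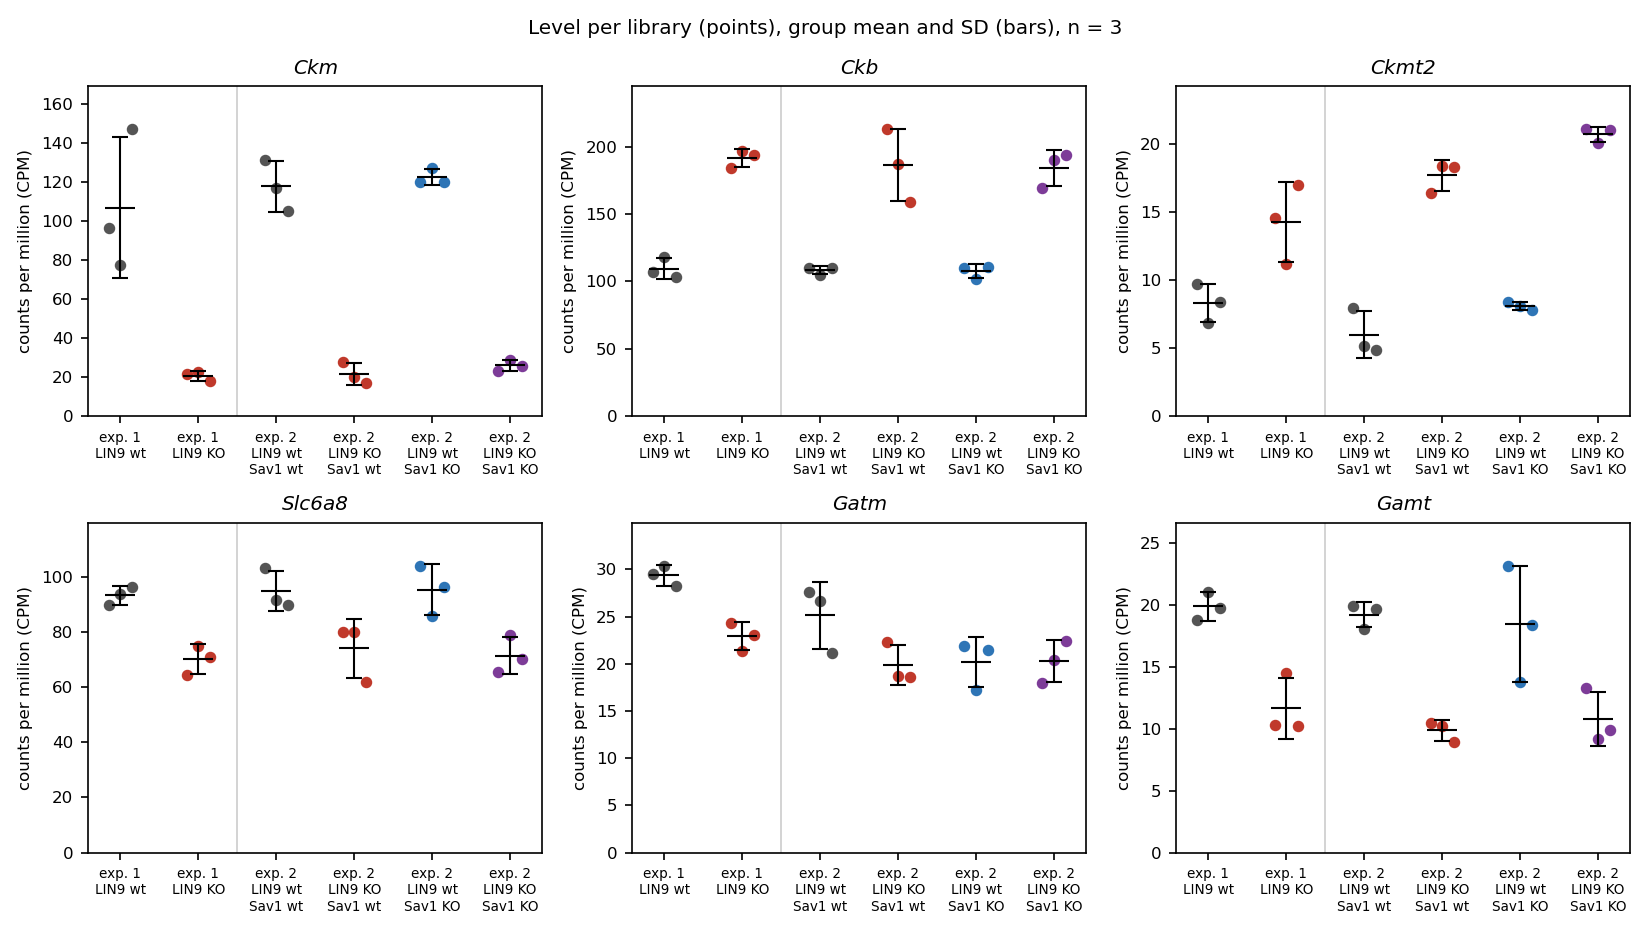
Level of 6 genes in each of the 18 libraries in CPM (vertical axis, from 0) for the 6 groups (horizontal axis), with points for libraries and bars for the group mean and SD (n = 3). Ckm is low and Ckb and Ckmt2 are high in every group without LIN9.

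Ckm encodes the muscle-type cytosolic subunit. In experiment 1, Ckm stood at 96.1, 77.2 and 147 CPM in LIN9 wt and at 21.6, 22.5 and 17.9 CPM in LIN9 KO. All LIN9 KO libraries lay far below the LIN9 wt libraries, which themselves spread widely. In experiment 2 it stood at 131, 117 and 105 CPM in the control and at 27.6, 20 and 16.8 in LIN9 KO, and the groups were again apart. Ckm was picked for values such as these, of either experiment or of both, and they correspond to log2 differences of -2.37 (SE 0.24) and -2.44 (SE 0.14), given without a test. Without replicate 3 of LIN9 wt the first is -2.07, and without replicate 1 of LIN9 KO the other is -2.69. Among all genes tested, 20.9% and 23.2% were called in these comparisons, and nothing is read from that here.

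Within Sav1 KO ventricles, Ckm stood at 120, 127 and 120 CPM with LIN9 wt and at 23.2, 28.9 and 25.9 CPM in the double KO. The groups were apart, with a log2 difference of -2.23 (SE 0.14), given without a test. Over 12 alternative settings it lay between -2.34 and -2.19. Results of these libraries were also known when Ckm was picked, so these values too are a description.

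The bulk libraries do not tell fewer cells of a type from less RNA per cell. Markers of cardiomyocytes, fibroblasts, epicardium, red cells and macrophages moved with LIN9 genotype and are given after the single genes.

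Ckb encodes the brain-type cytosolic subunit. It stood at 107, 118 and 103 CPM in LIN9 wt and at 184, 197 and 194 CPM in LIN9 KO of experiment 1. In the groups of experiment 2 it was 110, 105 and 110 CPM in the control, 213, 187 and 159 in LIN9 KO, 110, 102 and 111 in Sav1 KO and 169, 190 and 194 in the double KO. All LIN9 KO libraries were above all LIN9 wt libraries of the same experiment, and the LIN9 wt libraries were close together. Ckb rose 1.75-fold in experiment 1 (log2 fold change 0.81, SE 0.10, edgeR adjusted p = 5.63e-05), 1.72-fold against the control (0.78, SE 0.11, edgeR adjusted p = 2.96e-06) and 1.71-fold within Sav1 KO (0.78, SE 0.11, edgeR adjusted p = 3.37e-06). Groups did not overlap in any of the 3 comparisons, beside 36.6%, 35.1% and 41.1% of all genes. The call was kept under each alternative setting run.

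Ckmt2 encodes the sarcomeric mitochondrial kinase. It stood at 9.68, 6.85 and 8.41 CPM in LIN9 wt and at 14.6, 11.2 and 17 CPM in LIN9 KO of experiment 1. In experiment 2 it stood at 7.97, 5.14 and 4.84 CPM in the control and at 16.4, 18.4 and 18.3 in LIN9 KO, and at 8.41, 8.1 and 7.84 in Sav1 KO and 21.1, 20.1 and 21 in the double KO. Again, each LIN9 KO library was above each LIN9 wt library of its experiment. Ckmt2 rose 1.71-fold in experiment 1 (log2 fold change 0.78, SE 0.19, edgeR adjusted p = 0.00724), 2.93-fold against the control (1.55, SE 0.22, edgeR adjusted p = 5.34e-06) and 2.54-fold within Sav1 KO (1.35, SE 0.20, edgeR adjusted p = 1.41e-05). Its calls were kept under each alternative setting run. Whether its rise differs between the experiments was not tested, since they are separate tables. Ckm, which was low without LIN9, and Ckmt2, which rose, are both kinases of striated muscle.

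Ckmt1, the ubiquitous mitochondrial kinase, had 0 to 2 counts in each library, at most 0.681 CPM. All libraries lie under a floor of 3 counts, which is 0.308 to 0.325 CPM in experiment 1 and 0.983 to 1.12 CPM in experiment 2, so no fold is given. How reads that overlap genes or map to several places were counted is not given in full, and the part of this in the low Ckmt1 level was not tested. Its neighbour Ppip5k1 had 1494 counts in experiment 1 and 1082 in experiment 2.

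**Figure D2:**
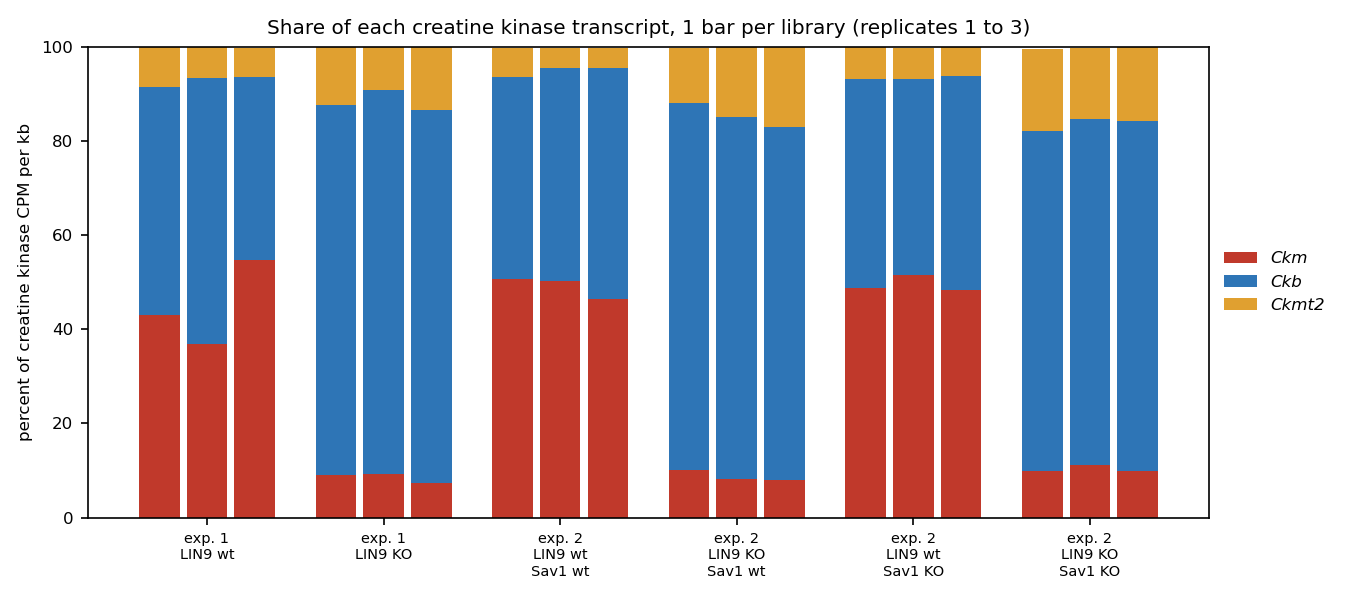
Share of Ckm, Ckb and Ckmt2 in the summed CPM per kb of the creatine kinases (vertical axis, percent), with a bar for each library by group. The Ckm share is at least 36.8% in each LIN9 wt library and at most 11.1% in each LIN9 KO library, and Ckmt1, at most 0.338%, is not drawn.

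The kinase transcripts can be set against each other as shares of their sum in CPM per kb. In experiment 1 the Ckm share was 43.1, 36.8 and 54.8% in LIN9 wt and 9.16, 9.28 and 7.26% in LIN9 KO. In experiment 2 it was 50.8, 50.2 and 46.5% in the control, 10.1, 8.21 and 7.9% in LIN9 KO, 48.7, 51.6 and 48.4% in Sav1 KO, and 9.86, 11.1 and 9.9% in the double KO. By group means, Ckm and Ckb made up similar shares in all groups with LIN9, and without LIN9 Ckb made up most of the sum. Libraries of LIN9 wt in experiment 1 differed more, with a Ckb share of 56.7% in replicate 2 and 38.9% in replicate 3. With the median length of coding transcripts, Ckb had the higher mean share in LIN9 wt, control and Sav1 KO. It was then 56.2, 53.8 and 52.1%, against 39.4, 43 and 43.9% for Ckm.

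The mean Ckb share was 48% in LIN9 wt and 79.8% in LIN9 KO of experiment 1, and 45.8, 76.8, 43.9 and 73.4% in the control, LIN9 KO, Sav1 KO and double KO of experiment 2. The mean Ckmt2 share was 7.02 and 11.6%, and then 4.87, 14.5, 6.45 and 16.1%, in the same order. The Ckmt2 share depends on the length used, and with the median length of coding transcripts it was 4.2 and 6.39%, and then 2.91, 8.12, 3.9 and 9.17%. Between the double KO and Sav1 KO, the Ckm share differed by -39.3 percentage points, that of Ckb by 29.5 and that of Ckmt2 by 9.69. These differences are given without a test, since shares of a sum depend on each other and Ckm was picked for its low level.

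The sum also depends on the length used and, since it includes Ckm, is given without a test. With the union of exons it was 80.1 ± 10.3 and 83 ± 1.91 CPM per kb in LIN9 wt and LIN9 KO of experiment 1, and 81.9 ± 5.6, 83.5 ± 10.6, 84.6 ± 0.437 and 86.6 ± 5.15 in the control, LIN9 KO, Sav1 KO and double KO (SD, n = 3). With the median length of coding transcripts the means were 134 and 150, and then 137, 149, 140 and 152, in the same order. For Ckm and Ckb alone the sign differs between the lengths. The means of their sum were 79.1 in Sav1 KO and 72.5 in the double KO with the union of exons, and 135 and 138 with the other length.

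The ratio of Ckm to Ckb depends on the length used. With the union of exons it was 0.983, 1.08 and 1.13 in LIN9 wt, control and Sav1 KO, and with the median length of coding transcripts it was 0.732, 0.804 and 0.843. Which of the pair is higher in ventricles with LIN9 is thus not settled by these counts. In the groups without LIN9, in the order LIN9 KO of experiment 1, LIN9 KO of experiment 2 and double KO, it was 0.107, 0.114 and 0.14 with the first length and 0.0799, 0.0846 and 0.104 with the other.

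Slc6a8 encodes the creatine transporter of the cell membrane. It stood at 89.7, 93.7 and 96.4 CPM in LIN9 wt and at 64.5, 75 and 71 CPM in LIN9 KO of experiment 1. The levels of experiment 2 were 103, 91.4 and 89.9 CPM in the control, 80.1, 80 and 61.8 in LIN9 KO, 104, 85.7 and 96.1 in Sav1 KO, and 65.4, 78.8 and 70 in the double KO. The LIN9 KO libraries were below the LIN9 wt libraries in each pair of groups, by a smaller distance than for the kinases. Slc6a8 was 1.33-fold lower in experiment 1 (log2 fold change -0.41, SE 0.10, edgeR adjusted p = 0.00772), 1.28-fold lower against the control (-0.36, SE 0.12, edgeR adjusted p = 0.0281) and 1.33-fold lower within Sav1 KO (-0.42, SE 0.12, edgeR adjusted p = 0.0108). The call was lost in experiment 1 without replicate 1 of LIN9 KO (edgeR adjusted p = 0.0521) and within Sav1 KO without replicate 1 of Sav1 KO (0.0721). Against the control it was lost with DESeq2 (adjusted p = 0.062) and, with edgeR, without replicate 3 of LIN9 KO (adjusted p = 0.113) and without replicate 1 of the control (0.0882). Over the alternatives the adjusted p ran from 0.00168 to 0.0521, from 0.011 to 0.113 and from 0.00325 to 0.0721 in the 3 comparisons.

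Gatm makes guanidinoacetate, the precursor of creatine. It stood at 29.5, 30.4 and 28.2 CPM in LIN9 wt and at 24.3, 21.4 and 23.1 CPM in LIN9 KO of experiment 1. For experiment 2 the values were 27.6, 26.7 and 21.1 CPM in the control, 22.3, 18.7 and 18.6 in LIN9 KO, 21.9, 17.2 and 21.5 in Sav1 KO, and 18, 20.4 and 22.4 in the double KO. Only in experiment 1 did LIN9 KO and LIN9 wt not overlap. There the log2 fold change was -0.35 (SE 0.11, edgeR adjusted p = 0.0387), and the call was lost with DESeq2 (adjusted p = 0.0843). With edgeR it was lost without replicate 1 or 2 of LIN9 KO (adjusted p = 0.0607 and 0.118) and without replicate 1, 2 or 3 of LIN9 wt (0.11, 0.111 and 0.0796), and over all alternatives the adjusted p ran from 0.0311 to 0.118. Gatm was not called against the control (-0.34, SE 0.17, edgeR adjusted p = 0.163) or within Sav1 KO (0.01, SE 0.17, edgeR adjusted p = 0.982). The difference between these last 2 effects was 0.34 (SE 0.24, edgeR adjusted p = 0.852).

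Gamt adds the methyl group that completes creatine. It stood at 18.8, 21.1 and 19.8 CPM in LIN9 wt and at 10.3, 14.5 and 10.2 CPM in LIN9 KO of experiment 1. Experiment 2 had 19.9, 18.1 and 19.7 CPM in the control, 10.5, 10.2 and 8.94 in LIN9 KO, 23.2, 13.8 and 18.4 in Sav1 KO, and 13.3, 9.15 and 9.95 in the double KO. The groups were apart in each pair, narrowly within Sav1 KO, where replicate 2 of Sav1 KO came close to replicate 1 of the double KO. Gamt was 1.71-fold lower in experiment 1 (log2 fold change -0.77, SE 0.16, edgeR adjusted p = 0.00244), 1.94-fold lower against the control (-0.96, SE 0.21, edgeR adjusted p = 0.00132) and 1.71-fold lower within Sav1 KO (-0.77, SE 0.21, edgeR adjusted p = 0.00811). Within Sav1 KO the call was lost without replicate 1 of Sav1 KO (-0.57, edgeR adjusted p = 0.0945), over a range of 0.00308 to 0.0945.

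**Figure D3:**
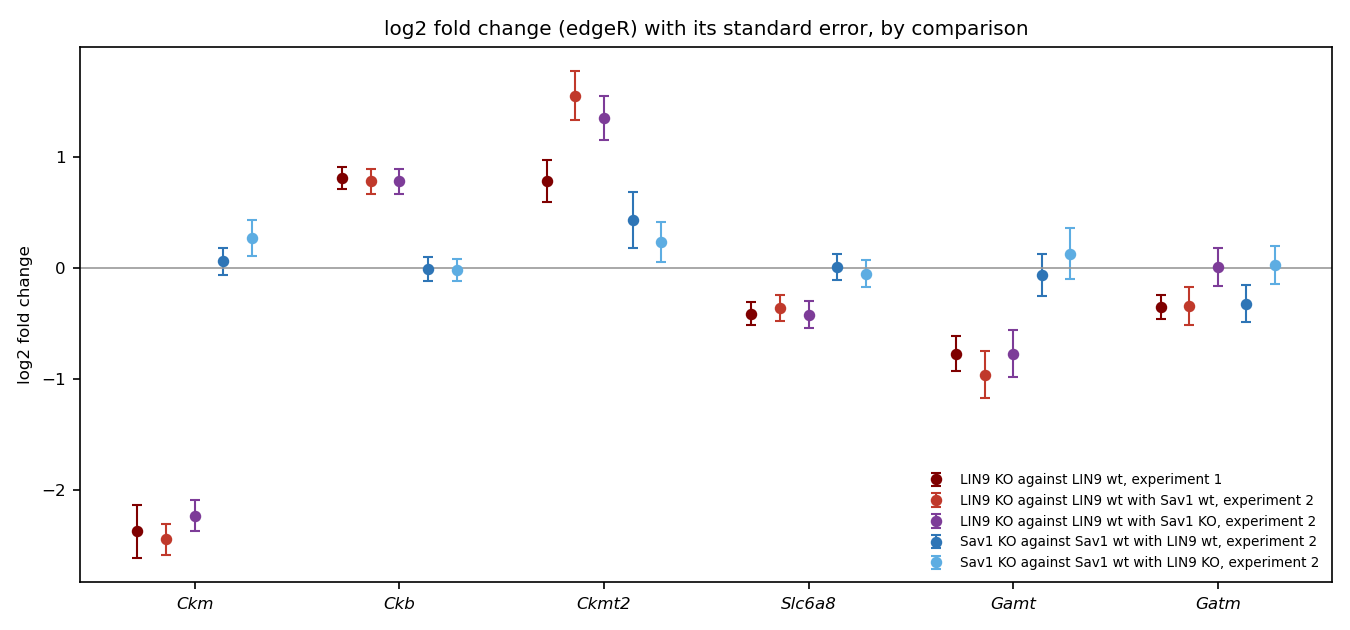
The log2 fold change of 6 genes (horizontal axis) in 5 comparisons with its standard error (vertical axis, log2 scale, edgeR). Ckm lies between -2.44 and -2.23 and Ckb between 0.78 and 0.81 in the LIN9 comparisons, and the Sav1 comparisons lie near 0, with the widest at 0.43 (SE 0.25) for Ckmt2.

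Loss of Sav1 was compared in both LIN9 backgrounds. In Sav1 KO against the control, 0 of the 5 genes tested were called by edgeR, 0 had an unadjusted p under 0.05 and 0 were called by DESeq2, beside 0.017% of all genes called. In the double KO against LIN9 KO these counts were 0, 0 and 0, beside 0.0113%. The largest of these log2 differences was that of Ckmt2 in Sav1 KO against the control (0.43, SE 0.25, edgeR adjusted p = 0.999). In the double KO against LIN9 KO, Ckmt2 differed by 0.23 (SE 0.18, edgeR adjusted p = 0.654). Ckm, given without a test, differed by 0.06 (SE 0.12) and 0.27 (SE 0.16), and the latter is 0.50 without replicate 1 of LIN9 KO. Over all genes, 378 were called in the double KO against LIN9 KO without replicate 3 of LIN9 KO, where 2 were called with all libraries.

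The interaction asks whether the LIN9 effect differs between Sav1 KO and Sav1 wt. Here too, 0 of the 5 genes were called by edgeR, 0 had an unadjusted p under 0.05 and 0 were called by DESeq2, beside 0% of 17675 genes. Its values were -0.01 (SE 0.15) for Ckb, -0.20 (SE 0.31) for Ckmt2, -0.06 (SE 0.17) for Slc6a8 and 0.19 (SE 0.30) for Gamt. For Ckm it was 0.21 (SE 0.20), without a test, and 0.45 without replicate 1 of LIN9 KO. Without replicate 3 of LIN9 KO, 64 of all genes were called. The 4 groups of experiment 2 enter these comparisons more than a single time, so the comparisons share libraries and are not independent of each other.

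Cell type markers were followed in the same libraries, since the ventricle holds several cell types. Of 11 cardiomyocyte markers, 9 were tested, and 6 were lower and 0 higher in LIN9 KO in each of the 3 LIN9 comparisons (Tnnt2, Tnni3, Actn2, Myh7, Nkx2-5 and Mybpc3). Beside these and the marker counts below, 9.78%, 10.5% and 11.6% of all genes were called lower and 11.1%, 12.8% and 11.8% higher. The call of Mybpc3 in experiment 1 was lost without replicate 2 of LIN9 wt (edgeR adjusted p = 0.0558, over a range of 4.46e-05 to 0.0558). Actc1 and Tnnc1 were listed at 0. The summed level was 16959, 17723 and 15710 CPM in LIN9 wt and 8685, 13205 and 7405 in LIN9 KO of experiment 1. It was 19379, 21466 and 21471 CPM in the control, 12427, 11305 and 11440 in LIN9 KO, 22413, 22491 and 23354 in Sav1 KO and 10442, 13428 and 14712 in the double KO. Myh7 was the most abundant, except in LIN9 KO of experiment 1, where it was Tnnt2.

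All 4 markers of ventricular cardiomyocytes (Myl2, Myl3, Irx4 and Hey2) were lower in each of the 3 LIN9 comparisons. Their sum was 7071, 6849 and 8329 CPM in LIN9 wt and 3099, 2382 and 3445 in LIN9 KO of experiment 1, with Myl2 the most abundant. In experiment 2 it was 7235, 6540 and 6615 CPM in the control, 2989, 2503 and 2142 in LIN9 KO, 6897, 6296 and 6698 in Sav1 KO and 3181, 2581 and 2374 in the double KO. Both lists fell in the libraries in which Ckm was low, and their part in the results was not tested.

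Markers of other cells were higher where Ckb and Ckmt2 were higher. Of 7 fibroblast markers, 6, 6 and 7 were called higher in the 3 LIN9 comparisons. Within Sav1 KO the call of Postn was lost without replicate 1 or 2 of the double KO (edgeR adjusted p = 0.0642 and 0.0503) and without replicate 1 or 3 of Sav1 KO (0.0655 and 0.0548), over a range of 1.67e-08 to 0.0655. The fibroblast sum, with Col3a1 the most abundant, was 2583, 2333 and 2263 CPM in LIN9 wt and 4644, 5056 and 4967 in LIN9 KO of experiment 1, and 3044, 3188 and 2958 in the control, 6583, 6675 and 5268 in LIN9 KO, 3084, 3463 and 2914 in Sav1 KO and 5301, 5961 and 6811 in the double KO.

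Of 6 epicardial markers, 5 were called higher in each (Wt1, Upk3b, Upk1b, Aldh1a2 and Tcf21). Within Sav1 KO the call of Aldh1a2 was lost with DESeq2 (adjusted p = 0.0858) and, with edgeR, without replicate 2 or 3 of the double KO (adjusted p = 0.179 and 0.116) and without replicate 1 or 3 of Sav1 KO (0.234 and 0.0876), over a range of 0.0134 to 0.234. The epicardial sum was 293, 286 and 279 CPM in LIN9 wt and 532, 496 and 561 in LIN9 KO of experiment 1, and 256, 253 and 257 in the control, 479, 440 and 563 in LIN9 KO, 213, 249 and 250 in Sav1 KO and 436, 427 and 439 in the double KO, with Upk3b or Tbx18 the most abundant. The part of fibroblasts and epicardium in the levels of Ckb and Ckmt2 was not tested.

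Blood and immune markers were also higher. Of 7 erythroid markers, 6 were tested, and 5, 6 and 5 were called higher, while Alas2 was listed at 0. In experiment 1, leaving out replicate 2 of LIN9 KO lost the calls of Rhag and Slc4a1 (edgeR adjusted p = 0.0604 and 0.0608, over ranges of 2.43e-09 to 0.0604 and 6.86e-15 to 0.0608). The erythroid sum, mostly Slc4a1, was 111, 79.2 and 61.4 CPM in LIN9 wt and 849, 514 and 331 in LIN9 KO of experiment 1, and 44.5, 45.2 and 43.6 in the control, 249, 204 and 350 in LIN9 KO, 33.3, 37.8 and 40.9 in Sav1 KO and 221, 179 and 134 in the double KO.

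Of 6 macrophage markers, 6, 5 and 5 were called higher. The call of Cd68 in experiment 1 was lost with DESeq2 (adjusted p = 0.0806) and, with edgeR, without replicate 1 of LIN9 KO (adjusted p = 0.13) and without replicate 1 or 3 of LIN9 wt (0.13 and 0.14), over a range of 0.0228 to 0.14. The macrophage sum was 88.7, 88.7 and 97.5 CPM in LIN9 wt and 186, 175 and 201 in LIN9 KO of experiment 1, and 91.4, 95.5 and 89.9 in the control, 208, 178 and 187 in LIN9 KO, 77.4, 73.2 and 87.6 in Sav1 KO and 204, 212 and 226 in the double KO, with Lyz2 or Csf1r the most abundant. The part of these cells in the creatine genes was not tested.

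**Figure D4:**
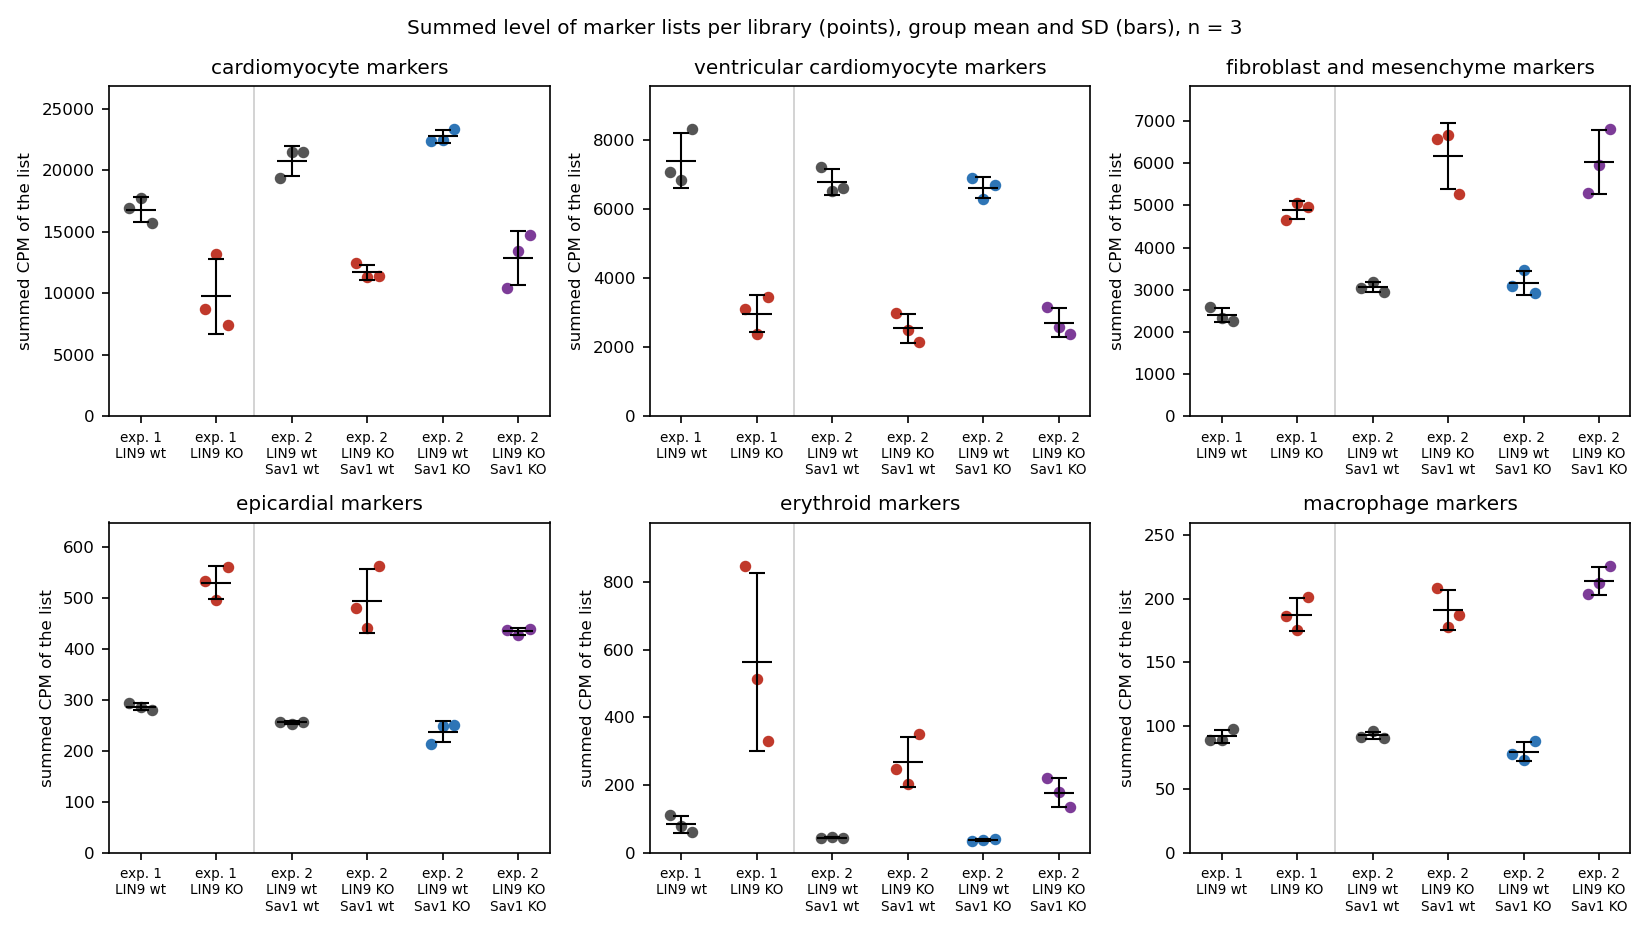
Summed CPM of 6 marker lists (vertical axes, from 0) in each of the 18 libraries by group, with points for libraries and bars for the group mean and SD (n = 3). Cardiomyocyte sums are lower and those of the other cell types higher in every group without LIN9, as in the calls of the marker genes.

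The other lists were counted in the same way, beside the same shares of all genes called. Atrial markers had 0, 1 and 1 of 6 called higher (Sln) and 0 lower, with sums of 2271 to 3437 CPM over all libraries and Myl4 the most abundant. The calls of Sln were lost against the control without replicate 2 or 3 of the control (edgeR adjusted p = 0.0805 and 0.067, over a range of 6.32e-09 to 0.0805), and within Sav1 KO without replicate 2 of the double KO (edgeR adjusted p = 0.0559) and without replicate 1 or 2 of Sav1 KO (0.0697 and 0.0701, over a range of 2.28e-09 to 0.0701). Endothelial markers had 2, 2 and 3 of 6 higher and 0, 1 and 1 lower, with sums of 777 to 1248 CPM and Tie1, Pecam1 or Cdh5 the most abundant. Smooth muscle markers had 1 of 5 higher in each (Tagln) and 1, 1 and 2 lower (Cspg4, then Acta2, then both). The call of Cspg4 was lost in experiment 1 without replicate 2 of LIN9 KO (edgeR adjusted p = 0.0544) and without replicate 1 or 3 of LIN9 wt (0.0943 and 0.0558), over a range of 0.0023 to 0.0943, and within Sav1 KO without replicate 1 of Sav1 KO (0.0575, over a range of 0.000148 to 0.0575). Against the control the call of Acta2 was lost without replicate 2 or 3 of LIN9 KO (edgeR adjusted p = 0.0595 and 0.0695) and without replicate 3 of the control (0.0566), over a range of 0.00148 to 0.0695. The smooth muscle sum, mostly Acta2, was 1449 to 2297 CPM, with 1494 to 1750 in LIN9 wt and 2045 to 2297 in LIN9 KO of experiment 1.

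Skeletal muscle, the other striated muscle that uses Ckm, had sums of 4.77 to 13.4 CPM over all libraries, with Myf5 listed at 0 in all of them and Mylpf or Actn3 the most abundant, and Mymk was not in the tables. Of its markers, only Actn3 was called, higher in experiment 1, and the call was lost without replicate 2 of LIN9 KO (edgeR adjusted p = 0.0544) and without replicate 3 of LIN9 wt (0.0744), over a range of 0.002 to 0.0744. Neural markers summed to at most 26 CPM with Tubb3 listed at 0. Hepatocyte markers summed to at most 9.05 CPM with Serpina1a and Fgb listed at 0 and Ttr the most abundant, and only Ttr was called, higher in experiment 1. There the sums were 0.515, 1.16 and 2.49 CPM in LIN9 wt and 1.63, 1.57 and 9.05 in LIN9 KO, so replicate 3 of LIN9 KO carries most of the difference. The call of Ttr was lost with DESeq2 (adjusted p = 0.068) and, with edgeR, without replicate 3 of LIN9 KO (adjusted p = 0.0899) and without replicate 1 or 3 of LIN9 wt (0.103 and 0.0873), over a range of 0.00769 to 0.103. The part of these lists in the results was not tested. In the Sav1 comparisons and the interaction, edgeR called 0 of 63 markers, 6, 7 and 4 had an unadjusted p under 0.05, and DESeq2 called 0.

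Relative to the cardiomyocyte sum, the genes took other positions. On the log2 scale, Ckm over that sum differed in LIN9 KO by group means by -1.50, -1.65 and -1.40 in experiment 1, against the control and within Sav1 KO. Ckb over the sum differed by 1.63, 1.60 and 1.61, and Ckmt2 by 1.60, 2.42 and 2.19. For these 3 kinases the sign was that of the CPM values.

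For the supply genes the sign of some differences depended on the scale. Slc6a8, lower in CPM, was higher relative to the cardiomyocyte sum by 0.41, 0.46 and 0.42, with overlap between the groups in experiment 1. Gatm differed by 0.47, 0.49 and 0.85, also with overlap in experiment 1. Gamt differed by 0.03, -0.14 and 0.07, with overlap in each. With the mean log2 CPM of the list in place of the sum, Slc6a8 differed by 0.26, 0.29 and 0.22, now with overlap in each, Gatm by 0.32, 0.32 and 0.65, and Gamt by -0.12, -0.31 and -0.13, with overlap in experiment 1 and within Sav1 KO. The sum leaves out the reads of other cells only in its denominator, so these ratios do not give levels per cardiomyocyte.

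A wider list of 53 genes of phosphate transfer and creatine chemistry was counted in the same way. In experiment 1, 47 were tested and 9 were called higher and 15 lower, beside 20.9% of all genes called. Without replicate 3 of LIN9 wt the 24 calls of experiment 1 dropped to 14. In experiment 2, 45 were tested, with 8 higher and 11 lower in LIN9 KO against the control (all genes 23.2%) and 10 higher and 14 lower within Sav1 KO (all genes 23.4%). The median log2 fold change of the list was 0.02, -0.14 and -0.11, and that of all genes tested was 0.0156, 0.00857 and 0.032. In the Sav1 comparisons and the interaction, edgeR called 0 of 45, 4, 3 and 4 had an unadjusted p under 0.05, and DESeq2 called 0. Myom1, Oat, Glyctk and Gnmt were listed at 0.

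Among genes for the exchange of ATP and ADP at mitochondria, 7 carriers and pores were tested. In the 3 LIN9 comparisons 6, 5 and 6 were lower, beside 9.78%, 10.5% and 11.6% of all genes, and 0 were higher, with medians of -0.41, -0.35 and -0.54. The ADP/ATP carrier Slc25a4 went from 1568 to 1051 CPM in experiment 1 and from 1385 to 934 in experiment 2 by group means (log2 fold changes -0.58 and -0.57, edgeR adjusted p = 0.00431 and 6.27e-05, over the alternatives 5.66e-06 to 0.0283 and 1.28e-07 to 0.000891). Slc25a5 (-0.66 and -0.81), the phosphate carrier Slc25a3 (-0.46 and -0.39) and the pores Vdac1 (-0.35 and -0.27) and Vdac2 (-0.37 and -0.35) were lower in both. Some of these calls were lost when a single library was left out. In experiment 1 the edgeR adjusted p of Slc25a3 was 0.0537 without replicate 1 of LIN9 KO. That of Vdac1 was 0.169 and 0.0598 without replicate 1 or 2 of LIN9 KO and 0.0854, 0.128 and 0.106 without replicate 1, 2 or 3 of LIN9 wt. That of Vdac2 was 0.133 without replicate 1 of LIN9 KO and 0.0619, 0.0851 and 0.0804 without replicate 1, 2 or 3 of LIN9 wt. Against the control the call of Vdac1 was lost in the fit of the 6 libraries alone (edgeR adjusted p = 0.0666), without replicate 2 of LIN9 KO (0.08) and without replicate 1 or 3 of the control (0.0971 and 0.116). Over the alternatives the adjusted p ran from 0.000199 to 0.0537 for Slc25a3 and from 0.00265 to 0.133 for Vdac2 in experiment 1, and for Vdac1 from 0.00581 to 0.169 there and from 0.0106 to 0.116 against the control.

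Adenylate kinases, which also move phosphate between adenine nucleotides, had 1, 2 and 2 of 9 higher and 3, 2 and 3 lower, beside 20.9%, 23.2% and 23.4% of all genes called. Ak1 (-0.51 and -0.47 on the log2 scale in experiment 1 and against the control) and Ak3 (-0.51 and -0.50) were lower, and Ak5 (1.72 and 2.28) was higher, from 2.35 to 7.78 and from 1.94 to 9.63 CPM, which is few counts. Within Sav1 KO the call of Ak1 was lost without replicate 2 of the double KO (edgeR adjusted p = 0.0535) and without replicate 1 of Sav1 KO (0.0594), over a range of 0.00364 to 0.0594. Among the M-band proteins, to which muscle creatine kinase binds in the sarcomere, Trim63 (-0.92 and -0.69) was lower in both.

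Adenine nucleotide breakdown had 3 of 7 tested higher and 2 lower in experiment 1, and 1 of 6 higher and 1 lower in both comparisons of experiment 2, beside 20.9%, 23.2% and 23.4% of all genes called in the 3 comparisons. Nt5e (0.80 and 0.78) was higher and Adk (-0.47 and -0.47) lower. In experiment 1 the call of Adk was lost without replicate 1 or 2 of LIN9 KO (edgeR adjusted p = 0.0828 and 0.0578) and without replicate 3 of LIN9 wt (0.121), over a range of 0.00034 to 0.121. In methyl donor supply, Mat2a (-0.61 and -1.01) was lower.

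Other transporters had 2 of 5, 2 of 4 and 3 of 4 tested higher and 0 lower, beside 11.1%, 12.8% and 11.8% of all genes called higher. Slc16a12, a creatine transporter of other tissues, went from 47.8 to 75.8 CPM in experiment 1 (log2 fold change 0.67, SE 0.19, edgeR adjusted p = 0.0357, over the alternatives 1.29e-05 to 0.105) and from 47.4 to 74.2 CPM against the control (0.64, SE 0.12, edgeR adjusted p = 0.000127) by group means. The call in experiment 1 was lost without replicate 1 or 2 of LIN9 KO (edgeR adjusted p = 0.0843 and 0.0991) and without replicate 1 or 3 of LIN9 wt (0.0666 and 0.105). Slc16a9 was higher, from 1.11 to 4.74 CPM in experiment 1 (log2 fold change 2.09) and from 1.13 to 6.35 CPM against the control, where the lower value lies close to the floor of 3 counts.

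The genes whose pattern was most like that of Ckm were Tnnt2, Ppif, Irx4, Idh3a and Cyc1, with Pearson r of 0.99, 0.99, 0.98, 0.98 and 0.98 of log2 CPM over the 18 libraries, centred in each experiment, among 12117 genes. Ckb had r = -0.95, Ckmt2 -0.88, Slc6a8 0.89, Gamt 0.89 and Gatm 0.59 with Ckm on the same measure. The points share libraries and their depth, and mostly reflect the step between LIN9 genotypes, so r is a description. Tnnt2 and Irx4 are also among the cardiomyocyte markers above. Their own log2 fold changes were smaller than those of Ckm, with -0.72, -0.72 and -0.74 for Tnnt2 and -1.53, -1.52 and -1.32 for Irx4 in the 3 LIN9 comparisons.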

How the data were processed

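Whole-number read counts per Ensembl gene (GRCm38.p6) were used as deposited. Per the study's methods and the submitters' processing notes, the authors mapped reads with TopHat (2.1.0) and Bowtie2 to mm10, brought each library down to the smallest number of mappable reads, and made the counts with summarizeOverlaps. The overlap mode and strandedness are not given in the sources used here. The authors' comparison tables (log2 fold changes, mean log2 CPM, p-values and FDR) and the 4 ChIP-seq samples were not used here.

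The members and lists were chosen with earlier results of these data known. Each experiment was fitted alone with edgeR (4.0.16, R 4.3.3): TMM normalisation, genes with a mean count above 1, group means with no covariate, robust quasi-likelihood tests, Benjamini-Hochberg adjustment over all genes tested and a threshold of 0.05. All 12 libraries of experiment 2 shared a fit. Log2 CPM used a prior count of 2. Exon lengths and positions are from GENCODE M21. Identifiers that occurred more than a single time were kept once, which left out 4 entries per table. Tests of Ckm within Sav1 KO and of the kinase shares were run and are left out, since Ckm was picked from these data. The scripts were tested on simulated data. Alternatives were DESeq2 (1.42.0), its size factors in edgeR, no count filter, a mean count above 10, a replicate block, the 6 libraries of a comparison alone, and each library left out.

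Named genes are the 7 described, Lin9 and Sav1, those of the wider list called in the same direction in experiment 1 and against the control, and the 5 genes with the highest correlation with Ckm at a mean of at least 5 CPM in both experiments. Some results are not reported here. Other genes were named as markers or after their values were seen. Whether replicate numbers pair the libraries was looked at with correlations, between groups, of how far each library lies from its group mean. These had to exceed 0.1 for every pair with the same number. This held for LIN9 KO and the control (0.217 to 0.6). It did not hold in experiment 1 (0.0422 to 0.181) or for the double KO and Sav1 KO (-0.057 to -0.019). For LIN9 KO and the control, unlike numbers also exceeded 0.1, with 0.214 for replicates 2 and 3 and 0.265 for replicates 3 and 2. Unlike numbers that included replicate 1 gave -0.431 to -0.322. These correlations thus do not show that the numbers pair the libraries, and the labels do not state it.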

Additional observations from a re-analysis of the deposited data

How the results depend on the processing

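The alternatives were run on the same counts. For Ckb, Ckmt2, Slc6a8, Gatm and Gamt in the LIN9 comparisons they made 175 fits. Of 151 fits of a called difference, 139 kept the call and 12 lost it. The other 24 are of Gatm in experiment 2, which was not called, and 0 gained a call. A called difference had the opposite sign in 0 fits. With a library left out, 3 to 5 of these 5 genes were called in experiment 1, where replicate 1 of LIN9 KO gave 3, and 2 to 4 within Sav1 KO, where replicate 1 of Sav1 KO gave 2. With a library left out, genes called in experiment 1 ran from 2722, without replicate 3 of LIN9 wt, to 4223. The cause was not tested.

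The Sav1 results depend on the settings. In Sav1 KO against the control 3 genes were called, and 22 with no count filter, 31 in the 6 libraries alone and 0 to 2 with a library left out. In the double KO against LIN9 KO 2 were called, and 77 with DESeq2, 309 with no count filter, 0 with a mean count above 10, 0 in the 6 libraries alone and 0 to 378 with a library left out, the most without replicate 3 of LIN9 KO. In the interaction 0 were called, and 17 with no count filter and 0 to 64 with a library left out, again the most without replicate 3 of LIN9 KO. The cause was not tested.

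The replicate block gave 84 genes in the double KO against LIN9 KO and 5001 in experiment 1, the most of all settings there, and moved no call of the 5 genes. Pairing by replicate number is neither stated by the labels nor shown by the correlations, so the block may or may not match the samples.

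Shares of the kinases depend on the length used. With the median length of coding transcripts, in the order LIN9 KO of experiment 1, control, LIN9 KO, Sav1 KO and double KO, the mean share of Ckm was 6.92, 43, 7.16, 43.9 and 8.56%, and that of Ckb 86.6, 53.8, 84.6, 52.1 and 82%. That of Ckmt2 was 6.39, 2.91, 8.12, 3.9 and 9.17%, and 4.2% in LIN9 wt of experiment 1. With raw counts, Ckm made up 11.2% in the double KO, Ckb made up 84.5, 82.5 and 79.6% in LIN9 KO of experiment 1, LIN9 KO and double KO, and Ckmt2 6.3, 2.56, 7.99, 3.41 and 9% in the first order and 3.73% in LIN9 wt of experiment 1. With a library left out, the mean share of Ckm ran from 39.9 to 48.9% in LIN9 wt of experiment 1 and from 9.88 to 10.5% in the double KO.

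With mean log2 CPM of the cardiomyocyte list in place of its sum, Ckm differed by -1.60 within Sav1 KO, Ckb by 1.42 against the control and 1.41 within Sav1 KO, Gatm by 0.65 within Sav1 KO and Gamt by -0.31 against the control. The cause was not tested.

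Each group has 3 libraries, so small effects can be missed, and the depth of experiment 2 limits what can be said of genes with low counts such as Ckmt1. Bulk ventricle mixes cells, and fewer cardiomyocytes cannot be told apart from less RNA in each. Lin9 counts do not separate the double KO from Sav1 KO, whereas ventricular markers do. The experiments were not compared with each other by a test. RNA counts do not give enzyme activity, dimer composition or creatine content. Ckm was picked from these data, so its low level is a description and not a test.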
